A study of Mus musculus with 12 samples.

Results

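The 10 genes described here form the core of the circadian clock and its best known direct output. They were taken by symbol from the deposited table: Arntl, Clock, Per1, Per2, Per3, Cry1, Cry2, Nr1d1, Nr1d2 and Dbp. All 10 were found among the 30743 genes of the table. RNA came from whole livers of C57BL/6J male mouse fetuses at 15 ± 0.5 days post coitum (dpc), 6 from dams on a control diet with 13.5 kcal% fat and 6 from dams on a high-fat diet (HFD) with 60 kcal% fat. The dams had been on their diets for 12 to 14 weeks, and which livers were littermates, and the time of day at harvest, are not given in the sources used here. The values are 1 average log2 CPM (reads of a gene scaled to the library's total) per gene over all 12 livers, so both diets are pooled in every level below. The contrast of the diets in the table is the study's own result and was not used, no value of a single liver was analysed, and no level has an SD. In whole livers, fewer cells of a type and less RNA per cell cannot be told apart.

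The clock is a feedback loop of transcription. ARNTL (BMAL1) and CLOCK bind E-boxes as a pair and drive the Per and Cry genes, whose proteins return to the nucleus and block that pair. The same pair drives Nr1d1 and Nr1d2, which encode the REV-ERB receptors that repress Arntl, and Dbp, which encodes an activator that binds D-boxes. In the adult liver, transcripts of these genes cycle over the day, so a level taken at 1 time describes that time.

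In the pooled fetal livers the repressors Cry1 and Cry2 had the highest values and Arntl, an activator, the lowest. Clock, its partner, had 49 reads, and its interval overlapped those of Per3 and Per2. Cry2 lay at 37.5 CPM and Arntl at 0.0189 CPM, after the value that genes without reads carry was subtracted. Above 1 CPM lay 6 of the 10 members (Cry2, Cry1, Nr1d2, Nr1d1, Per1 and Dbp), and below it Per2, Per3, Clock and Arntl. For comparison, 31.9% of all genes of the table and 43.8% of its protein-coding genes lay above 1 CPM. These are values of the table, and a limit on reading them as the order of the RNAs is given after the sequences.

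The control sequences of the loop are shown to place the members in it. RefSeq promoter windows (GRCm38.p6, 250 bases before to 50 bases after each annotated start) were held for 9 of the 10 members, all but Per2. They were searched on both strands for the E-box CACGTG, the related E-prime box CACGTT, the D-box TTATGTAA or TTACGTAA, and the core TAGGTCA of the element that REV-ERB and ROR receptors bind. No motif overlapped another in the matches below. Capitals mark the motif as read on the gene's strand, with 10 bases on either side, so that an E-prime box on the other strand reads AACGTG. Positions are counted from the start of a RefSeq transcript, and that of Per1 lies inside the longer gene that GENCODE annotates.

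Per1 E-box, chr11:69098773-69098798, plus strand, 166 bases before the start: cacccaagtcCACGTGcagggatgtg
Cry1 E-box, chr10:85185099-85185124, minus strand, 60 bases before the start: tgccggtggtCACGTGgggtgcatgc
Cry1 E-prime box, chr10:85185118-85185143, minus strand, 79 bases before the start: acacttcagaAACGTGaggtgccggt
Cry2 E-prime box, chr2:92434220-92434245, minus strand, 166 bases before the start: acatggtgggAACGTGagggggcgga
Nr1d1 E-prime box, chr11:98775390-98775415, minus strand, 28 bases before the start: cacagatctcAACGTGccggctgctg
Per3 D-box, chr4:151044853-151044880, minus strand, 205 bases before the start: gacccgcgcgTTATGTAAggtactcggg
Per3 D-box, chr4:151044806-151044833, minus strand, 158 bases before the start: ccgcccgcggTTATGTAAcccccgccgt
Arntl receptor element core, chr7:113207531-113207557, plus strand, 30 bases after the start, in an exon: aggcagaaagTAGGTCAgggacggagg

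The E-box was held by 2 of the 9 members with a window and by 8.09% of the 27025 genes with a window. For the E-prime box these were 3 of 9 and 5.44%, for the D-box 1 of 9 and 1.23%, and for the receptor element core 1 of 9 and 2.97%. Clock, Nr1d2 and Dbp held none of these motifs in their windows, which says only that the letters are not within the windows of 300 bases searched (3 for Clock and 1 each for Nr1d2 and Dbp). Binding of the factors was not measured.

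Before the levels are compared, a check of the table is needed, because some genes that every cell uses were close to or at no reads. Gapdh, an enzyme of glycolysis, had 5.05 CPM and Ppia, a widely expressed prolyl isomerase, had 2 reads in 12 livers, while Actb (cytoplasmic actin) had 2580 CPM. Of 76 genes of cytosolic ribosomal proteins, 11 lay below 1 CPM and 4 of these had no reads, and per kb of transcript they ranged from 0 to 2760 CPM. Among genes that mark the cells of this organ, most were abundant and a few had no reads. Hepatocyte genes such as Alb and Afp and the erythroid anion exchanger Slc4a1 were abundant, with 63300, 54500 and 12000 CPM, and the fetal liver is the main site of blood formation at this stage. Hnf4a, a defining hepatocyte transcription factor, and Pecam1, an endothelial adhesion protein, were listed with no reads, and Kit, the receptor of blood progenitors, with 1 read. Above 1 CPM lay 8 of 9 fetal hepatocyte markers, 6 of 7 listed erythroid markers, 3 of 5 myeloid, 3 of 3 megakaryocyte, 3 of 4 endothelial and 4 of 4 stellate and mesenchymal markers, and 0 of 4 stem and progenitor markers. A value near 0 in this table does not show that the RNA was absent, and whether the order of values is the order of the RNAs was not tested.

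Levels were also lower for genes with more than 1 transcript curated in RefSeq. Ribosomal protein genes with 1 curated transcript had a median of 17.6 CPM per kb (n = 58) and those with more than 1 had 1.69 CPM per kb (n = 18). For proteasome subunits the medians were 61.9 CPM per kb (n = 31) and 1.03 CPM per kb (n = 8). Over all protein-coding genes they were 0.242 CPM per kb (n = 11188) and 0.106 CPM per kb (n = 7046). Among the clock genes, Arntl has 5 curated transcripts, Clock and Per3 have 3, Per1 has 2, and the other 6 have 1. The 4 members with more than 1 had a median of 0.0444 CPM per kb and the 6 members with 1 had 1.60 CPM per kb. For 23 other genes of the clock the medians of this split were closer, at 0.394 CPM per kb (n = 18) and 0.457 CPM per kb (n = 5). With more than 2 curated transcripts, the median was 0.0289 CPM per kb for these other genes (n = 9). For the members it was 0.0319 (n = 3), for ribosomal protein genes 2.43 (n = 11) and over all protein-coding genes 0.0954 (n = 3456). Per2, with 1 curated transcript, lay below Per1, with 2, and Ppia, near no reads, has 1. The part that transcript number has in the members' levels was not tested, and the tool that counted reads per gene is not given in the sources used here.

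**Figure D1:**
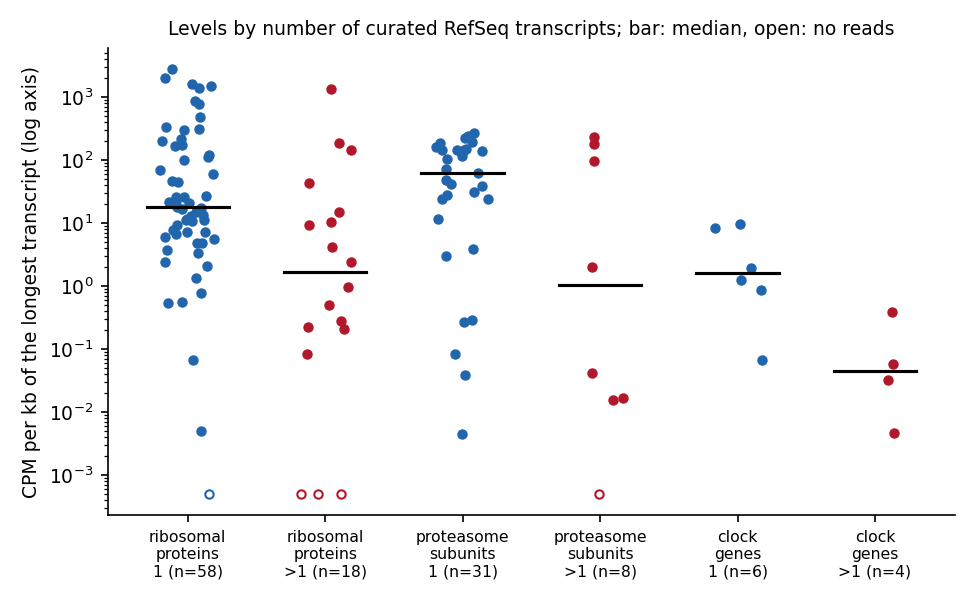
Level per kb of the longest transcript (log axis) of each cytosolic ribosomal protein gene, proteasome subunit gene and clock gene, split by whether RefSeq curates 1 or more than 1 transcript. Bars are medians and open circles are genes without reads, placed at the lower edge; in each of the 3 classes the median of genes with more than 1 curated transcript lies below that of genes with 1.

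Of the activators, Arntl was the lowest member by every length used. Clock lay below Per2 and Per3 per length of the longest transcript and above them per coding length. Per coding length the counting intervals of Clock, Per2 and Per3 overlapped, so they could not be placed in order. Arntl (chromosome 7 of GRCm38, 113207465 to 113314126, plus strand), the partner without which the loop stops, had an average log2 CPM of -2.55, against -2.71 for a gene without reads. That difference equals 3 reads in the 12 livers together (95% Poisson interval 0.62 to 8.77), or 0.25 read per liver. An antisense gene, Gm45355, shares 33 bases, or 0.44%, of its exons. Its relative Arntl2 had no reads (95% Poisson upper limit 3.69 reads in the 12 livers). Clock (chromosome 5, 76209868 to 76304792, minus strand) had an average log2 CPM of -1.11, or 49 reads (36.25 to 64.78). Clock thus lay 6.70 times above Arntl per length of the longest transcript (95% interval 2.16 to 33.6, counting error only), and 12.1 times (3.90 to 60.7) per coding length. Npas2, which can take the place of CLOCK in the pair, had 1.94 CPM and 0.457 CPM per kb, against 0.0319 CPM per kb for Clock. RefSeq curates 5 transcripts of Arntl, 4 of Arntl2, 3 of Clock and 1 of Npas2. The part of this in these values and differences was not tested.

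Among the period genes, which encode the PER proteins that carry the repressing complex, Per1 stood above the others. Per1 (chromosome 11, 69095217 to 69109960, plus strand) had an average log2 CPM of 0.97, which is 1.81 CPM above genes without reads (1.61 to 2.04) or about 286 reads. Per2 (chromosome 1, 91415982 to 91459324, minus strand) had -0.89, or 0.387 CPM (0.296 to 0.497) and about 61 reads. Per3 (chromosome 4, 151003652 to 151044665, minus strand), the member of the family least needed for the rhythm, had -1.02, or 0.342 CPM (0.257 to 0.447) and about 54 reads. Per length of the longest transcript, Per1 exceeded Per2 by 5.85 times (4.43 to 7.85) and Per3 by 6.80 times (5.07 to 9.28). Per2 and Per3 could not be placed in order: their ratio per length was 1.16 (0.792 to 1.71).

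The cryptochromes, which are the strongest repressors of the activator pair, had the highest values of the members in the table. Cry1 (chromosome 10, 85131700 to 85185064, minus strand) had an average log2 CPM of 4.66, or 25.1 CPM (24.3 to 25.9) and about 3960 reads. Cry2 (chromosome 2, 92403646 to 92434043, minus strand) had 5.24, or 37.5 CPM (36.6 to 38.5) and about 5914 reads. Among the 19652 genes with reads, Cry1 lay at percentile 79.6 and Cry2 at percentile 83.3 of CPM. Which of them is higher depended on the length used. Cry2 was 1.14 times Cry1 (1.09 to 1.18) per length of the longest transcript and 1.53 times (1.47 to 1.59) per coding length, but 0.789 times (0.758 to 0.822) per length of all exons together. An antisense transcript, D930015M05Rik, shares 295 bases, or 4.67%, of the exons of Cry2, and the library kit does not mark strand, so reads of the shared bases cannot be told apart.

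The REV-ERB receptors followed the cryptochromes. Nr1d2 (REV-ERB beta, chromosome 14, 18204054 to 18239127, minus strand) had an average log2 CPM of 3.19, or 8.98 CPM (8.52 to 9.46). Nr1d1 (REV-ERB alpha, chromosome 11, 98767932 to 98775333, minus strand) had 1.84, or 3.44 CPM (3.15 to 3.74). Per length of the longest transcript Nr1d2 exceeded Nr1d1 by 1.52 times (1.38 to 1.69), and by 2.79 times (2.52 to 3.09) per coding length. The 3′ end of Nr1d1 overlaps that of Thra, the thyroid hormone receptor alpha gene on the opposite strand, over 263 exon bases, or 8.55% of the Nr1d1 exons. Thra had 30.5 CPM in the same livers. With no strand information, how many of the Nr1d1 reads came from these bases was not tested.

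Dbp (chromosome 7, 45705088 to 45710203, plus strand), the D-box activator that carries the rhythm to many liver enzymes in the adult, had an average log2 CPM of 0.82, or 1.61 CPM (1.42 to 1.82) and about 254 reads. Its level per length of the longest transcript, 0.877 CPM per kb, was 2.26 times that of Per1 (1.90 to 2.68), although Per1 had more reads. Sphk2, a sphingosine kinase gene on the opposite strand, shares 539 bases, or 18.01%, of the exons of Dbp, the largest overlap of any member. Sphk2 had 2.17 CPM.

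**Figure D2:**
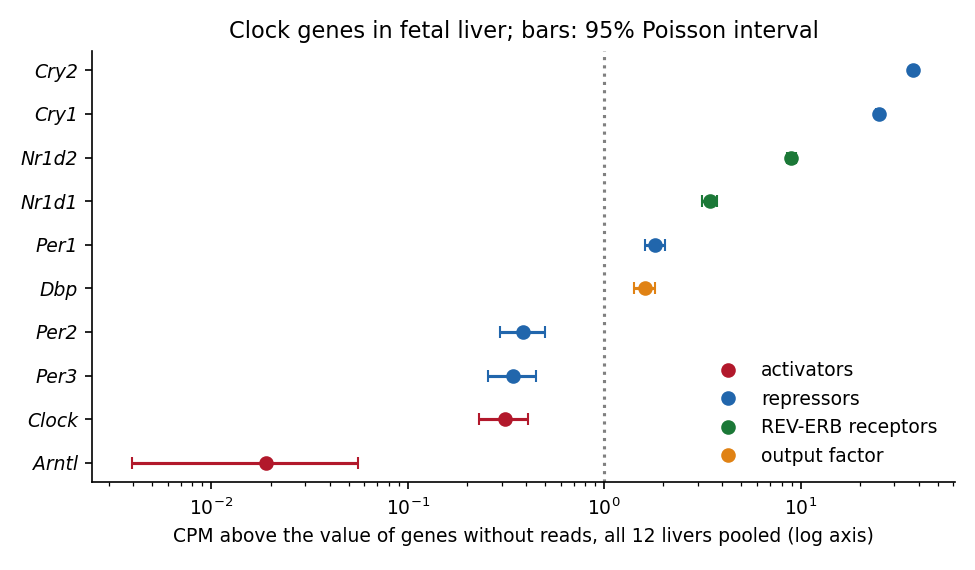
CPM above the value of genes without reads (log axis) for the 10 clock genes in the 12 livers pooled, coloured by role; bars are 95% Poisson intervals and cover counting error only, and the dotted line is 1 CPM. Arntl at 0.0189 CPM has an interval from 0.00392 to 0.0556, below that of every other member, while Cry1 and Cry2 lie at 25.1 and 37.5 CPM with intervals hidden by their points.

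Ordered by level per length of the longest transcript, the members ran Cry2, Cry1, Nr1d2, Nr1d1, Dbp, Per1, Per2, Per3, Clock and Arntl, from 9.44 to 0.00472 CPM per kb. Of the 9 pairs of neighbours in that order, 8 differed by more than counting error for this length. The exception was Per2 with Per3. The order was set by the same values, so the direction of each ratio was fixed beforehand. Cry2 to Cry1 was 0.789 (0.758 to 0.822) with the union of exons. Per coding length Per3 lay at 0.102 and Clock at 0.121 CPM per kb, with overlapping counting intervals. The spread between livers is not in these intervals. Per length of the longest transcript Cry2 exceeded Clock by 296 times (223 to 400) and Arntl by 1980 times (677 to 9610). Per coding length Cry2 exceeded Clock by 174 times (132 to 236). These are ratios of values, and whether they are ratios of the RNAs was not tested. Cytosolic ribosomal protein genes ranged from 0 to 2760 CPM per kb in the same livers. Cry2 has 1 curated transcript, Clock 3 and Arntl 5, and the part of this in the ratios was not tested. Among genes with reads and a length, the members spanned percentiles 6.1 (Arntl) to 78.8 (Cry2) of CPM per kb.

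**Figure D3:**
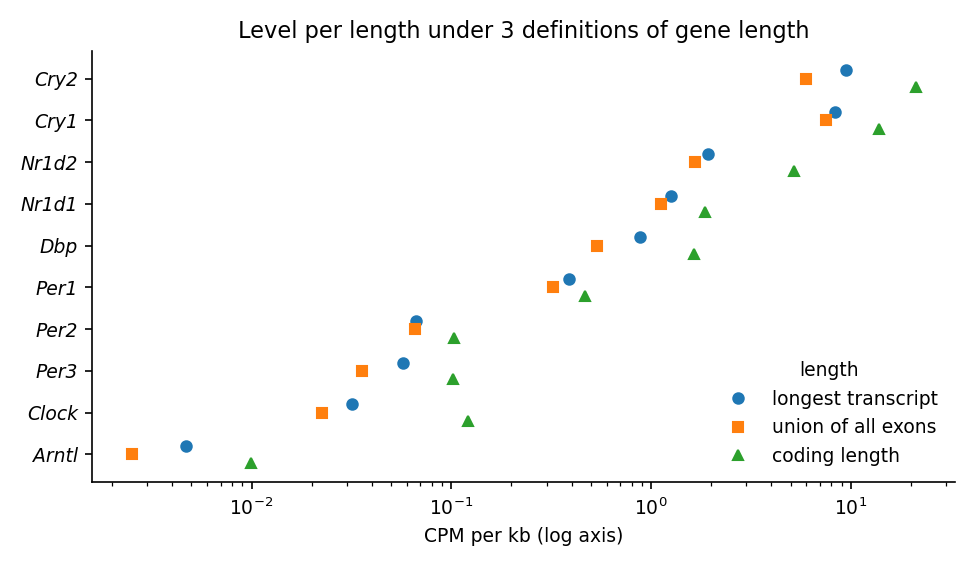
CPM per kb (log axis) of each clock gene when divided by its longest transcript, by the union of all its exons or by its longest coding length, all from GENCODE M21. Cry2 and Cry1 change places with the union of exons (5.94 and 7.52 CPM per kb), and Clock, at 0.121 CPM per kb of coding length, moves above Per2 and Per3, at 0.103 and 0.102. The counting intervals of Clock, Per2 and Per3 overlap per coding length.

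The other genes of the clock, 24 in a list of relatives, kinases, ubiquitin ligases, cofactors and outputs, ranged from no reads to 151 CPM. Above 1 CPM lay 14 of the 24, against 31.9% of all genes and 43.8% of protein-coding genes. Their median was 1.67 CPM against 1.71 CPM for the 10 members, and Arntl2 and Rorb had no reads. Rora, an activator that competes with the REV-ERB receptors, had 0.524 CPM and Nfil3, which competes with DBP at D-boxes, 0.424 CPM. Per kb, Rora lay at 0.0482 CPM, below Nr1d2 at 1.93 and Nr1d1 at 1.26. Rora has 3 curated transcripts and Nr1d2 and Nr1d1 have 1 each, and the part of this in the difference was not tested.

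Of the repressors that bind E-boxes, Bhlhe40 (DEC1) had 19.2 CPM per kb, above Cry2, and Bhlhe41 (DEC2) had 0.0704. Ciart, which binds the activator pair and is listed under its older symbol Gm129, had 0.165 CPM. The relatives of Dbp lay on both sides of it in CPM: Tef had 3.77 CPM and Hlf 1.38 CPM, with 0.856 and 0.245 CPM per kb against 0.877 for Dbp. The casein kinases that mark PER proteins for turnover, Csnk1d and Csnk1e, had 1.66 and 1.5 CPM per kb, close to the REV-ERB genes. Fbxl21, a ligase adaptor that acts on cryptochromes, had 0.0289 CPM per kb. Btrc and Fbxw11, ligase adaptors for PER proteins, had 6.31 and 0.361 CPM per kb. Gsk3b, a kinase that acts on several clock proteins, had 15.4 CPM per kb and Nampt, the NAD-making enzyme that is an E-box output, 18.8. Sirt1, an NAD-dependent deacetylase, and Nono, a PER partner, had 0.428 and 1.09 CPM per kb. Prkaa2, Timeless and Usp2 were near no reads, with 11, 16 and 1 reads in the 12 livers. RefSeq curates 2, 4 and 3 transcripts of these genes, and 9 of Btrc, which had 6.31 CPM per kb. The part of transcript number in these values was not tested. The highest of the list per kb were Prkaa1 (32.4), a catalytic subunit of AMP kinase, and Wee1 (26.6), a brake on entry into mitosis that is an E-box output of the clock.

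**Figure D4:**
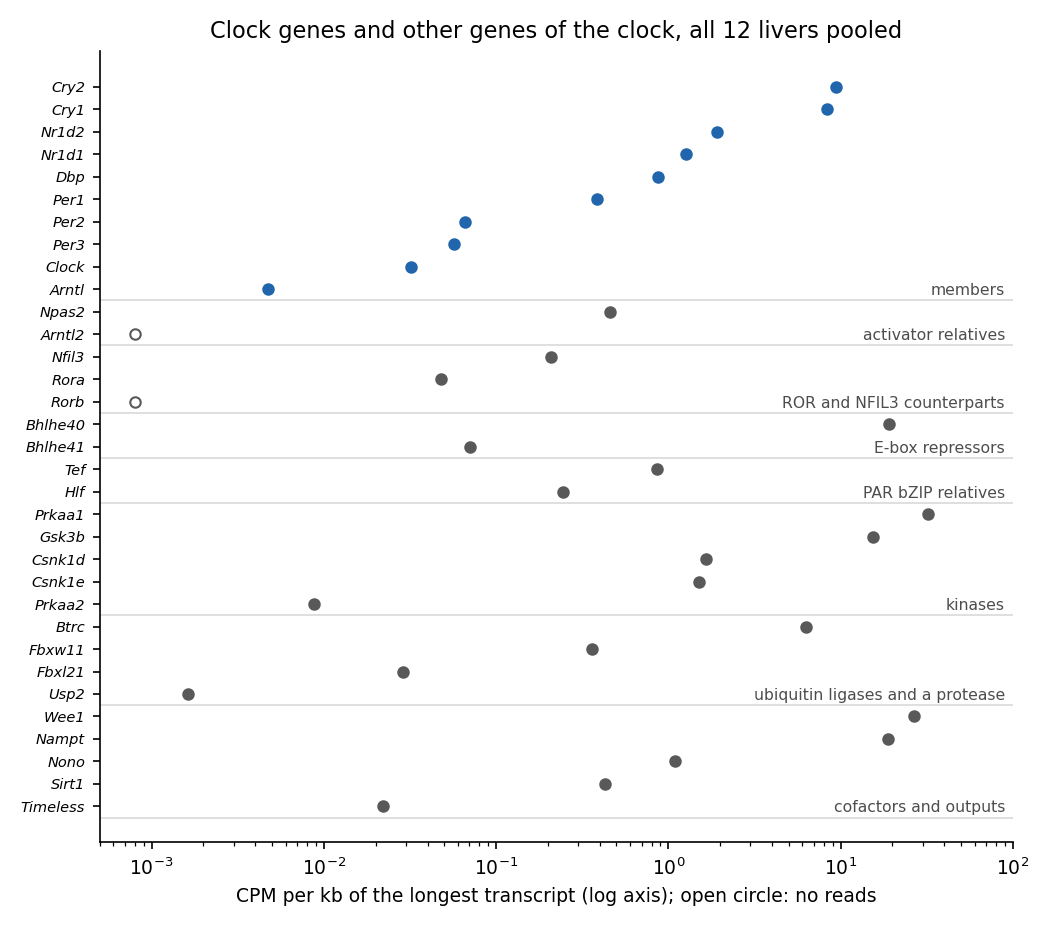
CPM per kb of the longest transcript (log axis) of the 10 clock genes (blue) and of 23 other genes of the clock (grey), grouped by role, in the 12 livers pooled; open circles are genes without reads, placed at the left edge, and Ciart has no length and is not drawn. Values run from no reads for Arntl2 and Rorb to 32.4 CPM per kb for Prkaa1, and Bhlhe40 at 19.2 lies above Cry2 at 9.44.

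Markers of the suprachiasmatic nucleus, the seat of the central clock in the brain, were at or near no reads (Avp 1 read, Six6 no reads, Vip and Lhx1 0.107 and 0.0951 CPM). Of the genes that the clock drives in adult hepatocytes, Cyp7a1, the rate-limiting enzyme of bile acid synthesis, had 5.52 CPM and Pck1, an enzyme of gluconeogenesis, had 0.184 CPM. Por and Alas1 were listed with no reads, so 1 of the 4 listed outputs lay above 1 CPM, against 31.9% of all genes and 43.8% of protein-coding genes. As for Hnf4a and Pecam1, no reads in this table does not show that the RNA was absent.

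The reads that the deposited values hold for each member set what a comparison of 6 with 6 livers from the same counts could resolve. If the reads of a gene were split equally between the groups, counting alone would give the log2 ratio of the groups a standard error of 0.04 for Cry2, 0.05 for Cry1, 0.08 for Nr1d2, 0.12 for Nr1d1, 0.17 for Per1, 0.18 for Dbp, 0.37 for Per2, 0.39 for Per3 and 0.41 for Clock. For Arntl the same formula gives 1.67, but it rests on a normal approximation that is poor at 3 reads. The spread between livers adds to these errors.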

How the data were processed

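PolyA-selected RNA of 12 whole fetal livers was sequenced on an Illumina HiSeq instrument from an unstranded library. For the steps before the table, the submitters' processing notes name the tools cutadapt 1.2.1, Subread 1.3.6-p1 and edgeR and the build mm10. Subread was the authors' aligner and edgeR their test of the diets. How reads were assigned to genes, the annotation release and the normalization are not given in the sources used here. The authors deposited 1 table of 11 columns, whose average log2 CPM per gene over all livers was used here. A further 8 columns hold the study's own fold changes, p-values and adjusted p-values and were not used. The planned tests of the diets need values of single livers and were not run.

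Genes without reads (11091) share 1 value of -2.71, which was subtracted on the linear scale. The 1267 genes at the next value carry 1 read, worth 0.00634 CPM. Of 3149 genes with 1 to 5 reads, 100% came out whole within 0.1 read. On that scale the libraries hold about 158000000 normalized reads, 13100000 per liver on average. Read totals of abundant genes are approximate. Intervals (95%, exact Poisson, or Clopper-Pearson for ratios) cover counting error only. They treat each read as independent, and PCR copies are not independent molecules, so the intervals may be too narrow. For a gene without reads the upper limit is 3.69 reads.

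GENCODE M21, which uses the same assembly as mm10 (GRCm38), supplied lengths, positions and exon overlaps, and 21025 genes had a length. RefSeq (GRCm38.p6) gave promoter windows and numbers of curated transcripts. The computation of read totals was tested on simulated data made with the same formula that it inverts. That test covers the arithmetic only and not how the deposited values were made. All 10 members are named, with a list of 24 other clock genes, the genes that overlap a member and cell type markers. A few genes of the planned lists are not reported here and enter no count of a list. The members and lists were chosen with earlier results of these data known. The ribosomal, proteasome, widely expressed and transcript-number checks were chosen after values were seen. Tools were Python 3.11.15 with scipy 1.17.1, pandas 2.3.3, numpy 2.4.6 and, for drawing, matplotlib 3.10.9.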

Additional observations from a re-analysis of the deposited data

How the results depend on the processing

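The order of the members by level per length depended on the length. With the union of all exons, 8 of the 10 members kept their place, and with the coding length 7 did. Cry2 and Cry1 changed places in the first case, and Clock, Per2 and Per3 in the second. The counting intervals of Clock, Per2 and Per3 overlapped per coding length. The levels per length of single members moved beyond their counting interval for 8 of 10 members with the union of exons and for 9 of 10 with the coding length. Without subtraction of the value of genes without reads, 4 of 10 moved. Percentiles moved for 8 of 10 when taken per length, and for all 6 members above 1 CPM when taken over genes above 1 CPM. These shifts follow from how each alternative is built.

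Alternatives that need values of single livers (other normalizations, DESeq2 in place of the quasi-likelihood test, filters on low counts, other pseudocounts, leaving out each liver) were not run. No paired analysis was possible because no value of a single liver was used. Relative counting error was widest for Arntl, with 3 reads in all, followed by Clock, Per3 and Per2. How far the counting behind the table lowered each member's value was not tested.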
